A study of Mus musculus with 3 samples.

Results

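The retinoid receptor genes comprised Rara, Rarb and Rarg, which encode the retinoic acid receptors (RAR), and Rxra, Rxrb and Rxrg, which encode the retinoid X receptors (RXR). They were chosen by family membership and not by a measured value, and they were 6 of the 22367 protein-coding genes of the annotation used (GENCODE M1 on the NCBI37/mm9 mouse genome). Binding of RXRα and RARα at these genes was measured by chromatin immunoprecipitation followed by sequencing (ChIP-seq) in livers of wild type male C57BL/6 mice at 3 months of age. There was 1 library per group: an anti-RXRα precipitate, an anti-RARα precipitate and the input, which is the same kind of chromatin without precipitation. The question was whether the receptors occupied the genes that encode them.

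Without replicates no test between libraries was possible, and all values describe these 3 libraries. The RXRα and input signals corresponded to 9999939 and 9999292 reads, and the depth of the RARα library is unknown from its peak list. The study reported more uniquely mapped RXRα reads than this, so read counts here are those of the signal tracks and not of the whole library. How the tracks came to nearly equal totals is not given in the sources used here. Intervals are exact (Clopper-Pearson) 95% intervals on these read counts, and they cover counting error only. As a check of the tissue, all 10 hepatocyte marker genes (Alb, Apoa1 and others) carried a co-localized RARα peak, against 27.4% of all genes. The counts were 0 of 6 for stellate cells, 1 of 6 for Kupffer cells, 2 of 6 for endothelial cells and 0 of 4 for cholangiocytes. A filtered RARα peak alone was also present at 4 of 6 stellate and 3 of 6 endothelial markers, and an RXRα region at 2 and 4 of these. Whole liver was used, so strong binding in few cells and weak binding in many cannot be told apart.

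RARs are nuclear receptors that bind all-trans retinoic acid, and they sit on DNA as heterodimers with an RXR. RXRs also pair with other nuclear receptors of the liver that sense fatty acids, oxysterols, bile acids and xenobiotics. A heterodimer recognises direct repeats (DR) of a hexamer close to AGGTCA, and the number of bases between the hexamers gives the repeat its name, so that DR5 is the classical retinoic acid response element and DR1 a site for several RXR dimers. RAR genes have more than one promoter, and the promoter inside the Rarb gene is a textbook target of retinoic acid.

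The sequences on which the results turned were the DR5 inside RARα peaks of the RAR genes, which came as pairs in Rarb and Rarg, and single repeats at the RXR genes. They are given 5′ to 3′ on the mm9 genome, on the strand that carries the repeats, with the hexamers of each repeat in capitals.
Rara, chr11:98821322-98821338, plus strand: AGTTCAgcaagAGTTCA
Rarb, chr14:17408007-17408093, minus strand: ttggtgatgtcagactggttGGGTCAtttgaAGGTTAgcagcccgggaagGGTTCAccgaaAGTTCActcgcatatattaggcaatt
Rarg, chr15:102077593-102077693, minus strand: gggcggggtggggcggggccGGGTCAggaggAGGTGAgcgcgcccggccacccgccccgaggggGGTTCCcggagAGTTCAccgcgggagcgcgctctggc
Rxra, chr2:27566249-27566261, plus strand: GGGTCAtGGGTCA
Rxrb, chr17:34164825-34164837, plus strand: AGGTCAgAGGTCA
Rxrb, chr17:34173785-34173801, minus strand: AGGTCActcaaAGGTCA
Rxrg, chr1:169548261-169548353, plus strand: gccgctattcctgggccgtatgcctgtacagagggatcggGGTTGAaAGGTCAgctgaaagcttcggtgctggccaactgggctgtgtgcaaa

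In the 3 RAR genes the repeats lay on the coding strand upstream of an internal transcript start. In Rara the exact repeat was AGTTCAgcaagAGTTCA. In Rarb the order was GGGTCAtttgaAGGTTA, 13 bp, and the exact repeat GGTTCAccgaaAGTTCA. In Rarg the repeats were GGGTCAggaggAGGTGA and GGTTCCcggagAGTTCA, 27 bp apart, and each held 1 mismatch in 1 hexamer. The exact repeats of Rara and Rarb were identical at 13 of 17 bases. Both were followed by the run attaggcaa, after 10 bp in Rara and 9 bp in Rarb. This run was the longest found in a search for any run shared by the 97 bp windows around the 2 repeats. How often such windows share a run of this length was not tested. Of all 32946 RARα peaks with a score greater than 20 (filtered peaks), 7 (0.0212%) held such a pair, defined as 2 DR5 with at most 1 mismatch each, on the same strand and at most 50 bp apart from start to start. This definition was written after the RAR sequences had been seen. For 4 of the 7 the nearest gene start was that of Fcna (0.99 kb away), Cyp26a1 (1.89 kb), Baiap2l1 (14.4 kb) or Khdc1a (22.7 kb). Cyp26a1 encodes the main retinoic acid degrading enzyme. All 4 peaks were co-localized with RXRα. A single DR5 with at most 1 mismatch was less particular, since 3.44% of filtered RARα peaks held at least 1.

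All 6 genes carried binding of both receptors. A locus was taken as 10 kb on either side of the gene start plus the gene body, an RXRα region as bins with at least 20 times the input, and a co-localized RARα peak as a filtered peak that overlapped an RXRα region by at least 25% of the narrower interval. A filtered RARα peak was present at 6 of 6 loci, against 58.2% of all protein-coding genes. An RXRα region was present at 6 of 6, against 48%, and a co-localized RARα peak at 6 of 6, against 27.4%. The long bodies of these genes entered these counts. Within 10 kb of the gene start alone, 4 of 6 had a filtered RARα peak (52.5% of all genes), 4 of 6 an RXRα region (39.9%) and 3 of 6 a co-localized peak (23.7%), so that the shares were closer to those of all genes. Within 1 kb of the gene start, 2 of 6 had a filtered RARα peak (41.5%), an RXRα region (21.9%) and a co-localized peak (16.4%).

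**Figure D1:**
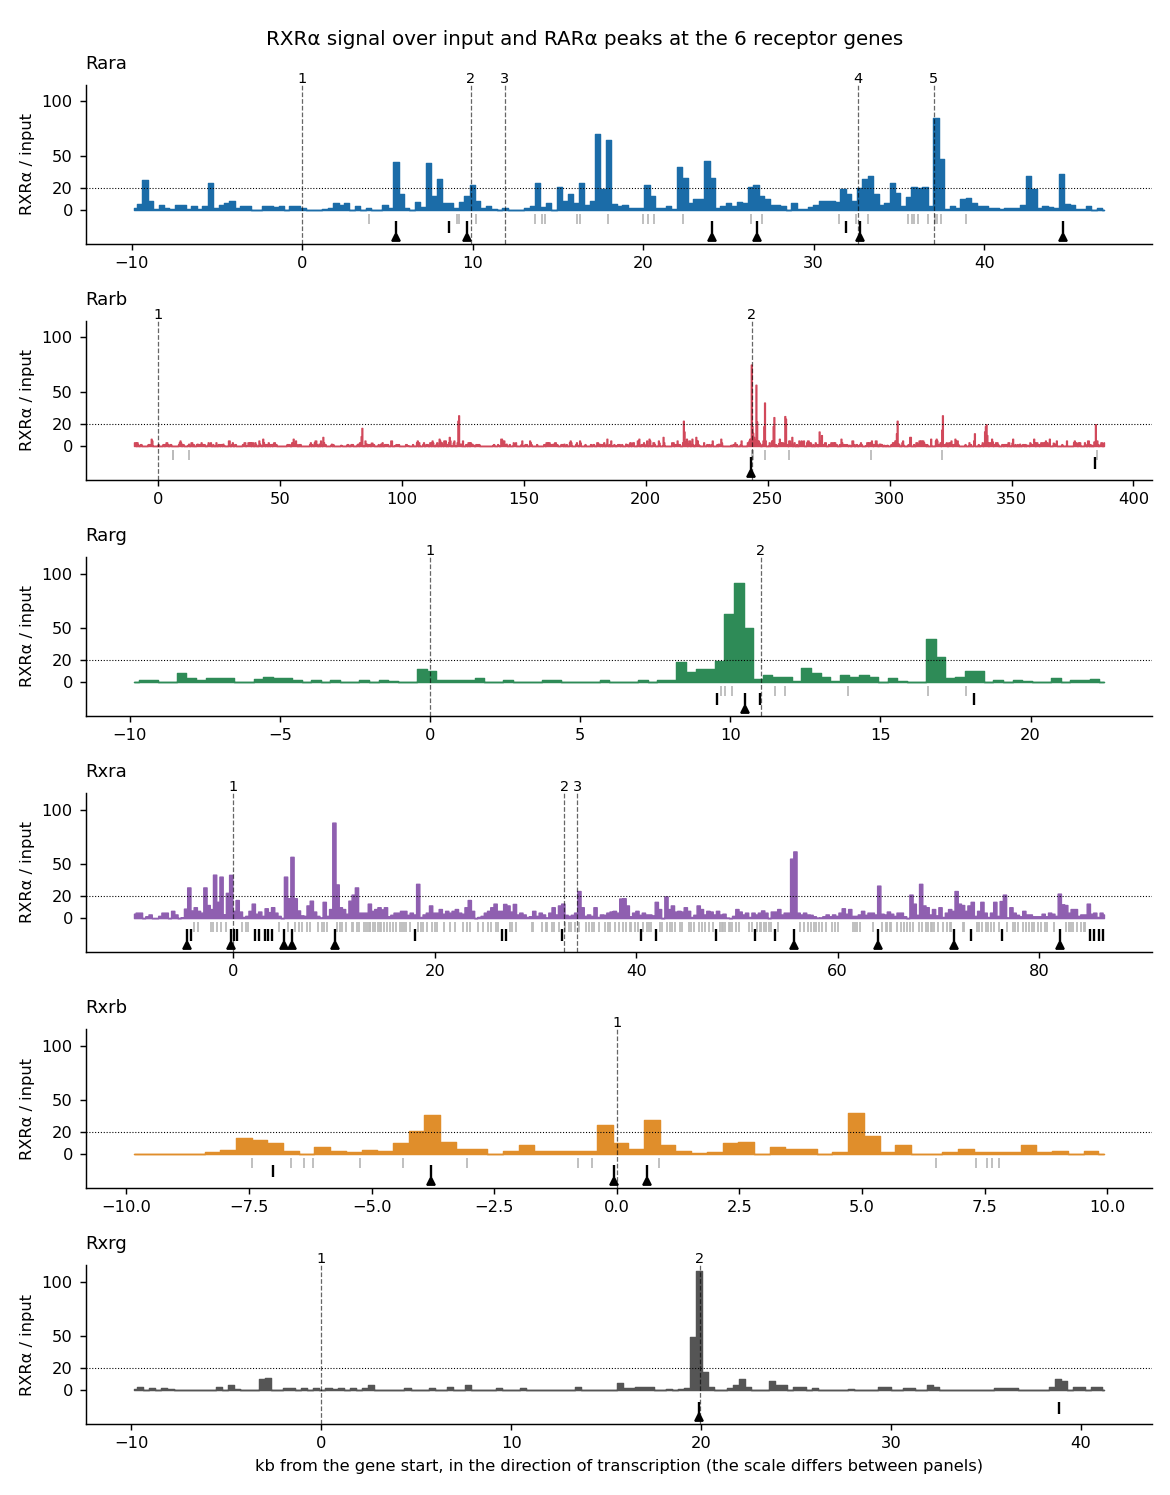
RXRα signal over input (highest ratio in steps of 320 bp, linear scale) along the 6 loci, in kb from the gene start. Dashed lines are the numbered transcript starts, the dotted line is the threshold of 20, grey ticks are RARα peaks with a score of 20 or less, black ticks are filtered RARα peaks, and triangles are co-localized peaks. The highest ratio of Rarb lies 243 kb and that of Rxrg 19.8 kb into the gene, at start 2, while Rxra is covered by RARα peaks along its length.

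In total the 6 loci held 324 RARα peaks, of which 52 were filtered, and 60 RXRα regions. Rxra accounted for 243 of the peaks and 32 of the filtered peaks, and Rara for 24 of the RXRα regions. Of the 52 filtered peaks, 37 were in introns, 9 in exons and 6 upstream of the gene, and 13 had their summit within 1 kb of an annotated transcript start. At the score threshold, 7 peaks had a score of 20 and 7 a score of 21.

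At the RAR genes binding by both receptors was called at internal starts and at none of the 3 first annotated starts. The annotation gave 15 separate transcript starts for the 6 genes, 6 first starts and 9 later starts. Within 1 kb of the first start, 2 of 6 genes (Rxra and Rxrb) had a filtered RARα peak, against 41.9% of all first starts, and the same 2 had an RXRα region, against 22.3%. Within 1 kb of the 9 later starts, 6 had a filtered RARα peak, against 16.6% of all 5772 later starts, 7 had an RXRα region, against 13%, and 5 had a co-localized peak, against 7.71%. The 9 later starts came from 5 genes and are not independent of each other.

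**Figure D2:**
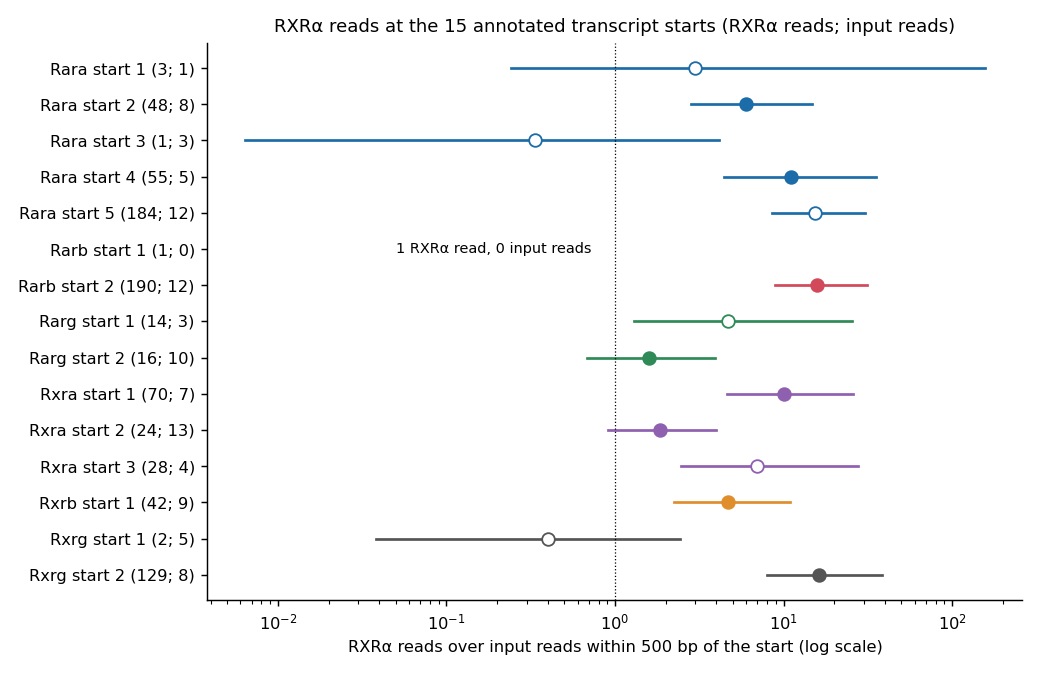
RXRα reads over input reads within 500 bp of each of the 15 transcript starts (log scale), with exact 95% counting intervals and the read numbers in the labels (RXRα, then input). Filled points are starts with a filtered RARα peak within 1 kb, and the first starts of Rara, Rarb and Rxrg hold 3 RXRα reads or fewer.

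Rara encodes RARα itself, the RAR precipitated here. Its first start had 3 RXRα reads and 1 input read within 500 bp and no RARα peak within 1 kb. Start 2, at 9.88 kb, had 48 RXRα and 8 input reads, which gave a ratio of 6.00 (2.81 to 14.7), with a co-localized RARα peak of score 26. Start 4, at 32.6 kb, had 55 and 5 reads, a ratio of 11 (4.44 to 35.2). The intervals of starts 2 and 4 overlapped each other and that of start 1.

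Start 4 was the start with the exact DR5. The peak over the repeat, at chr11:98820781-98821440 in an intron, scored 63, the highest RARα score at Rara, and the repeat lay at -396 bp from the start. This peak was not co-localized, since no RXRα bin in it reached 20 times input and the highest was 19. At the repeat the RXRα signal was 5 per 32 bp bin with no input signal, and the repeat was 275 bp from the RARα summit. The plot of signal around the starts shows the RXRα maxima on both sides of the repeat, 1 over the upstream part of the score 63 peak and 1 downstream of the start in a co-localized peak of score 24.

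The strongest RXRα bin of Rara was elsewhere, at 37.2 kb next to start 5. It had an RXRα signal of 85 over an input of 1, and the RARα peak over it had a score of 18, below the filter. Within 500 bp of start 5 there were 184 RXRα and 12 input reads, a ratio of 15.3 (8.57 to 30.2). Of the 24 RXRα regions of Rara, 6 held a filtered RARα peak, 10 held only peaks with a score of 20 or less and 8 held no RARα peak. The highest RARα score and the highest RXRα ratio of this gene thus lay at different places. Of its 8 filtered RARα peaks, however, 6 were co-localized with RXRα, against 32.2% of filtered peaks in the genome.

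Rarb encodes RARβ, and its annotated body spans 388 kb. At its first start there was 1 RXRα read and 0 input reads within 500 bp, no RARα peak within 1 kb, and a highest RARα score of 6 within 10 kb. At start 2, 243 kb downstream, there were 190 RXRα and 12 input reads, a ratio of 15.8 (8.85 to 31.2). The RARα peak at this start, at chr14:17407911-17408550, had a score of 61 and was the only co-localized peak of the locus. Start 2 was thus the only place in Rarb where RARα (filtered) and RXRα were called together, with 9 RXRα regions in the locus.

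The DR5 pair of Rarb lay at -79 and -49 bp from start 2. The RXRα signal was 119 per bin at both repeats, over an input of 3 and 6, and the exact repeat was 80 bp from the RARα summit. It was the only exact direct repeat within 100 bp of a filtered RARα summit at the 6 loci, so that 1 of 52 filtered peaks held one, against 0.677% of all filtered peaks. The nearest protein-coding gene start to this peak was that of Top2b, 210 kb away, so an assignment by the nearest gene start would not have given the peak to Rarb. The other 8 RXRα regions of Rarb had highest ratios of 23.2 to 56.4, and 6 of the 9 regions had no RARα peak. The second filtered RARα peak scored 52, was 384 kb from the gene start, held 28 RXRα and 7 input reads and reached a ratio of 19.9987, which lies under the threshold by the scaling of the tracks alone.

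**Figure D3:**
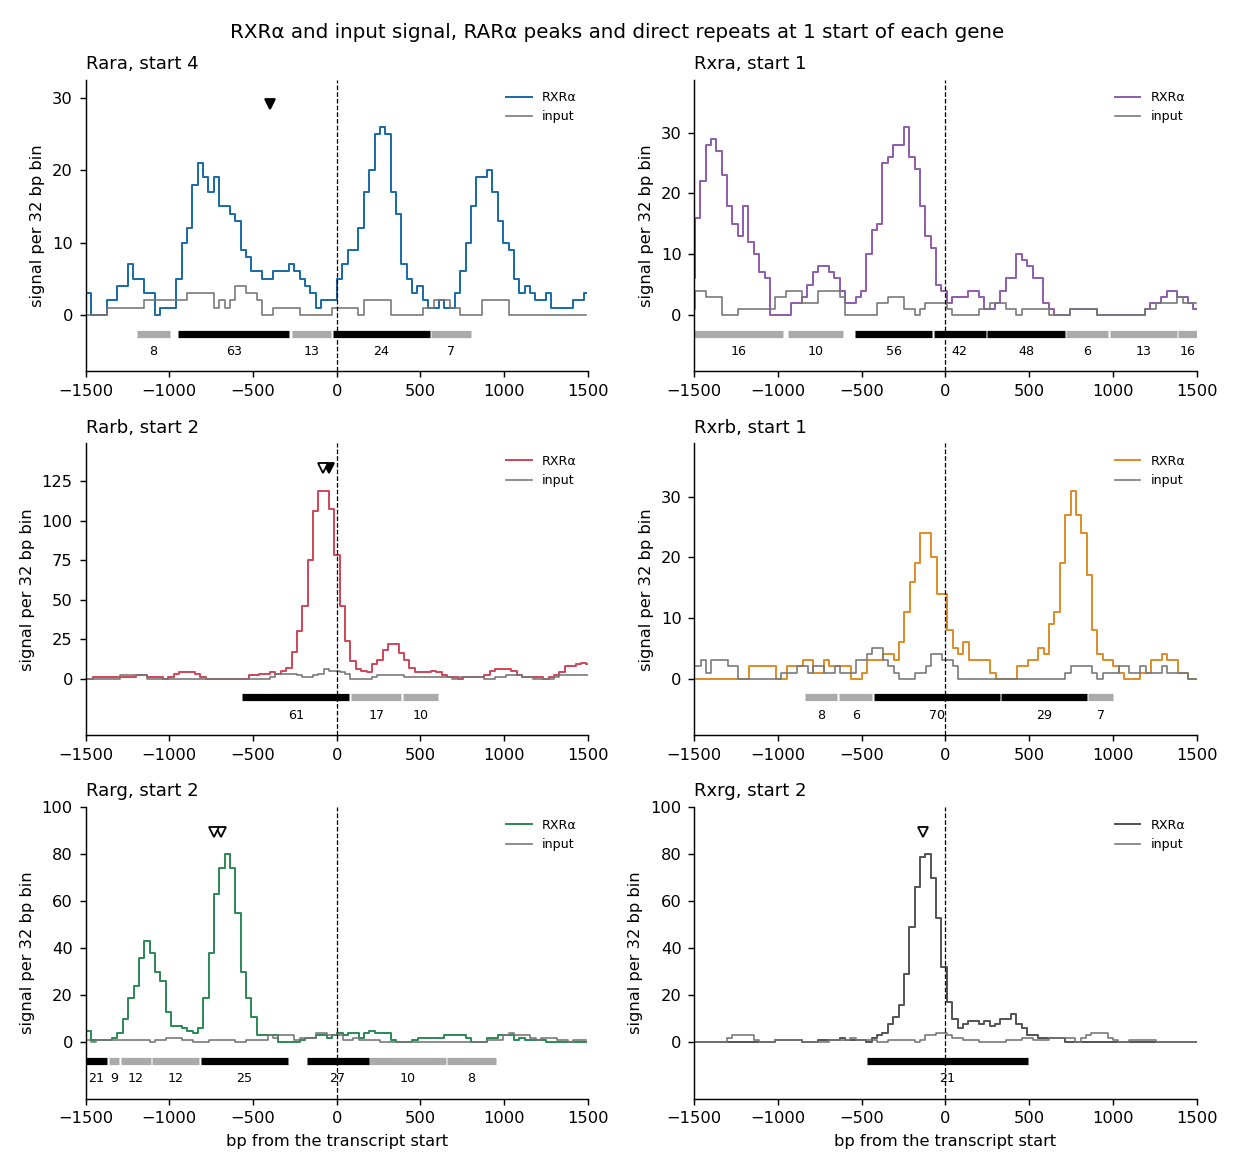
RXRα (coloured) and input (grey) signal per 32 bp bin within 1500 bp of 1 transcript start of each gene (bp from the start, in the direction of transcription). Bars under the tracks are RARα peaks with their scores, black where the score is greater than 20, filled triangles are exact direct repeats and open triangles are the repeats with 1 mismatch whose sequences are printed above. The RXRα maximum is 119 at Rarb, over the DR5 pair, and at Rara the exact DR5 lies between RXRα maxima.

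Rarg encodes RARγ. Start 1 had 14 RXRα and 3 input reads within 500 bp and no RARα peak within 1 kb. Start 2, at 11.017 kb, had 16 and 10 reads, a ratio of 1.60 (0.683 to 3.94). The binding lay further upstream, beyond the 500 bp window. The RARα peak over the DR5 pair had a score of 25 and a summit at -514 bp from start 2, and over it there were 96 RXRα and 4 input reads, a ratio of 24 (9.07 to 89.9). The repeats were at -734 and -690 bp, with RXRα signals of 38 and 74 over an input of 1. The highest ratio of the locus, 91.3, was an RXRα signal of 55 over no input signal in the same region.

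Of the 4 filtered RARα peaks of Rarg, this was the only co-localized one. The highest scoring, with a score of 34 in a coding exon at 18.1 kb, had 10 RXRα and 2 input reads. The peak over start 2 itself had a score of 27 with 7 and 5 reads, a ratio of 1.4 (0.382 to 5.59). The 2 other RXRα regions, with highest ratios of 39.8 and 63.1, held RARα peaks of scores 15 and 12. The highest RARα score of Rarg was the lowest of the 6 genes.

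Rxra encodes RXRα, the main RXR of hepatocytes. Its first start was bound by both receptors, with 70 RXRα and 7 input reads within 500 bp, a ratio of 10 (4.61 to 25.8). The highest scoring RARα peak, 56, had its summit at -215 bp and was co-localized. The highest RXRα ratio, 87.9, was at 10.1 kb in an intron, in a peak of RARα score 24. A further RXRα region, with a highest ratio of 61.4, was at 55608 bp from the gene start in a peak of score 35. Binding of both receptors was thus present at the first start as well as inside the gene.

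RARα peaks formed a near continuous cover over Rxra. They covered 82.6% of the locus, against a median of 2.79% over all protein-coding genes, and 8 genes had a higher share. Of the spaces between neighbouring peaks, 183 were exactly 10 bp, so the peaks abutted. Joined across all spaces of 10 bp or less, the 243 peaks formed 57 domains, the longest of 7.47 kb with 18 peaks, from just upstream of the first start. Of the 32 filtered peaks, 9 were co-localized with RXRα, against 32.2% of filtered peaks in the genome. The median RXRα enrichment was 7.62 at these 9 and 2.70 at the other 23. The definition of a co-localized peak itself brings this difference about. The input was also high at this locus, with 7.88 reads per kb against 3.77 over the genome, and its part in the RARα cover was not tested.

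The 2 later starts of Rxra, at 32.9 and 34.1 kb, had ratios of 1.85 (0.903 to 3.95) and 7.0 (2.45 to 27.5). The exact DR1 GGGTCAtGGGTCA lay 152 bp after start 3, in an RXRα region with a highest ratio of 24.9 (signal of 15 over no input) and 45 bp from the summit of a RARα peak with a score of 18. It was the only exact direct repeat at the Rxra locus.

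Rxrb encodes RXRβ and has the shortest gene body, 6.58 kb, in a dense part of chromosome 17. Its start had 42 RXRα and 9 input reads within 500 bp, a ratio of 4.67 (2.24 to 10.9), and the RARα peak there had a score of 70 with its summit at -52 bp. A second co-localized peak in the first part of the gene had a score of 29 with 37 and 2 reads. The highest RARα score of all 6 genes, 71, was at chr17:34164521-34165371, at -3787 bp. This peak lay over the start of H2-Ke6, a gene on the other strand that begins at -3752 bp, and held the exact DR1 AGGTCAgAGGTCA 139 bp from its summit, in an RXRα region with a highest ratio of 36.5. The starts of Ring1 at -7132 bp, Slc39a7 at -122 bp and Col11a2 at 7625 bp also fell in the Rxrb locus, so no peak here can be assigned to Rxrb alone.

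The strongest RXRα region of the Rxrb locus, with a ratio of 38.0, was at 4.92 kb over exons of Rxrb and held no RARα peak of any score. At its edge was the exact DR5 AGGTCActcaaAGGTCA, made of consensus hexamers, with an RXRα signal of up to 88 and an input of up to 5. An exact DR5 at these genes thus occurred with RARα and RXRα (Rarb), with RARα below the RXRα threshold (Rara) and with RXRα alone (Rxrb). The other exact DR5, in Rarb and Rarg, lay in no RARα peak and no RXRα region.

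Rxrg encodes RXRγ, which is best known from muscle and brain. Its first start had 2 RXRα and 5 input reads and no RARα peak within 10 kb. Start 2, at 19.9 kb, had 129 and 8 reads, a ratio of 16.1 (7.94 to 38.1), the highest of the 15 starts, with an interval that overlapped those of Rarb start 2 and Rara start 5. The RXRα region there was the only one of the locus and had the highest ratio of the 6 genes, 110, from a signal of 66 over no input. This order depended on the input reference, since Rara (73.0) and Rarb (65.9) stood above Rxrg (65.3) with the mean input over 1 kb, and Rarb, Rara and Rxrb stood above it with the genome mean alone. The RARα peak over it had a score of only 21, just above the filter. The other RARα peak of the locus scored 57, was at 38.85 kb, had 18 RXRα and 5 input reads and was not co-localized. The repeat nearest the RXRα maximum was GGTTGAaAGGTCA, a DR1 with 1 mismatch at -133 bp, where the RXRα signal was 79 over an input of 1.

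Across the 52 filtered RARα peaks of the 6 genes, 21 were co-localized with an RXRα region and 31 were not, against 32.2% of filtered peaks co-localized in the whole genome. The median RXRα enrichment was 11.03 at the co-localized peaks and 2.94 at the others, a difference that the definition itself brings about. Below the score threshold, 24 of 272 peaks overlapped an RXRα region in the same way, against 12.4% in the genome. Rara contributed 9 of these 24 from 28 peaks and Rxra 10 from 211. The overlapping share was thus higher above the score threshold than below it, with exceptions, as scores of 18 at Rara and 21 at Rxrg stood beside higher RXRα enrichment than scores of 52 at Rarb and 57 at Rxrg.

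**Figure D4:**
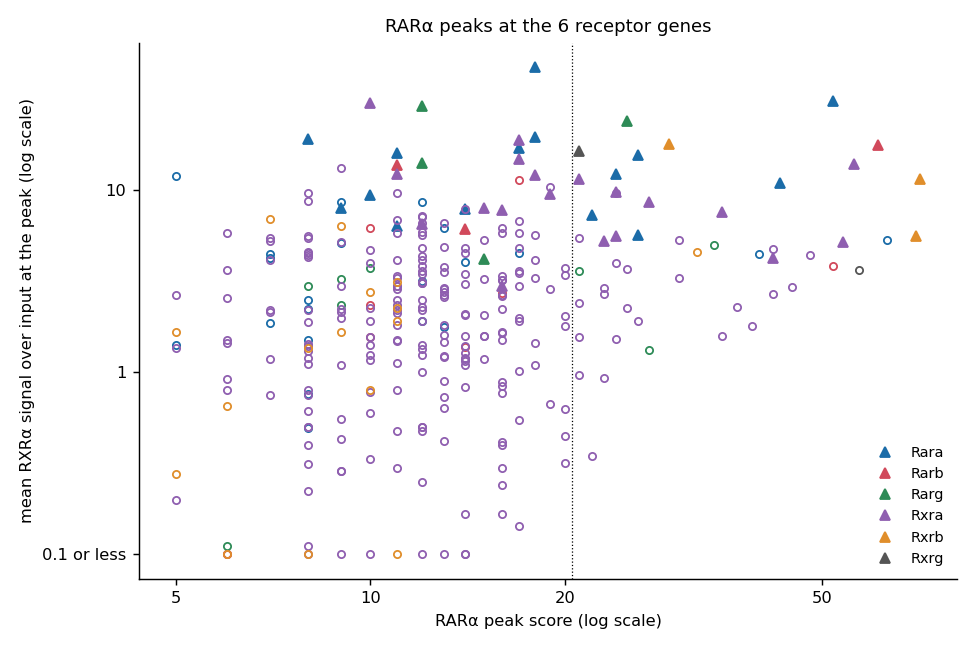
RARα peak score against mean RXRα signal over input for the 324 RARα peaks at the 6 loci (both axes log scale, values below 0.1 drawn at 0.1). Filled triangles are peaks that overlap an RXRα region by at least 25%, open circles are the others, and the dotted line separates scores of 20 and 21. The overlapping peaks have scores from 8 to 71, and the share of peaks that overlap is higher to the right of the dotted line.

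Seen from RXRα, 21 of the 60 regions held a filtered RARα peak, 23 held only peaks with a score of 20 or less, and 16 held none. At Rxra 1 of 19 regions was without a RARα peak, at Rara 8 of 24 and at Rarb 6 of 9. RARα peaks covered 82.6% of the Rxra locus, 22.7% of Rara and 1.09% of Rarb. The part of this cover in these counts was not tested. The share of all RXRα regions in the genome that held a RARα peak was not worked out. Highest ratios of the 60 regions ran from 21 to 110 with a median of 29.0. Many rested on bins with no input signal, where the genome mean of 0.603 per bin was used.

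Exact direct repeats were few, and most lay outside called binding. The hexamers searched were the consensus AGGTCA, its variant at the first base GGGTCA, its variant at the third base AGTTCA, and the form with both changes GGTTCA. The 6 loci held 21 of them (1 to 5 bases between hexamers, on either strand), of which 6 were DR5, 7 DR1 and 6 DR2. Of the 21, 4 lay in a RARα peak, 3 of them in a filtered peak, 4 lay in an RXRα region, and 16 lay in neither. In the genome the share in any RARα peak ran from 1.52% of DR2 to 4.50% of DR1. It ran from 0.298% to 1.35% in a filtered peak and from 0.972% to 3.23% in an RXRα region. A repeat anywhere in the peak was held by 3 of the 52 filtered RARα peaks, against 1.36% in the genome. Of the 60 RXRα regions, 1, at Rxra start 3, held a repeat within 100 bp of its highest bin, against 2.98%. Of the 8929 exact DR5 in the genome, 0.694% lay in a filtered RARα peak and 1.99% in an RXRα region, and 2 of the 6 at these loci lay in a filtered RARα peak (Rara and Rarb) and 2 in an RXRα region (Rarb and Rxrb). With 1 mismatch allowed in 1 hexamer the loci held 306 repeats, 71 of them DR5, of which 8 lay in a filtered RARα peak. The genome share of such DR5 in filtered peaks was not worked out, and the shares above are for exact repeats only. Counted by peak, 5 of the 52 filtered peaks held at least 1 such DR5, against 3.44% of all filtered peaks.

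Over whole loci, RXRα reads exceeded input reads most at Rara, with 1822 and 339 reads and a ratio of 5.37 (4.78 to 6.05), which 173 genes exceeded. It was followed by Rxrb at 3.58 (2.88 to 4.49), Rxra at 3.01 (2.77 to 3.27) and Rarg at 2.82 (2.29 to 3.49), whose intervals overlapped. Rxrg at 1.55 (1.27 to 1.89) and Rarb at 1.20 (1.11 to 1.29) were lowest, with overlapping intervals. The median of all protein-coding genes was 0.929. For this median and the rank of Rara, input was taken as at least the genome mean of 3.77 reads per kb. The input of Rxrg (3.24 reads per kb) and Rarb (3.42) was below that mean, so their ratios would be lower on the scale of the median. The interval of Rara did not overlap that of any other member. The locus length entered these ratios, and the 9 RXRα regions of Rarb were spread over a locus of 398 kb.

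**Figure D5:**
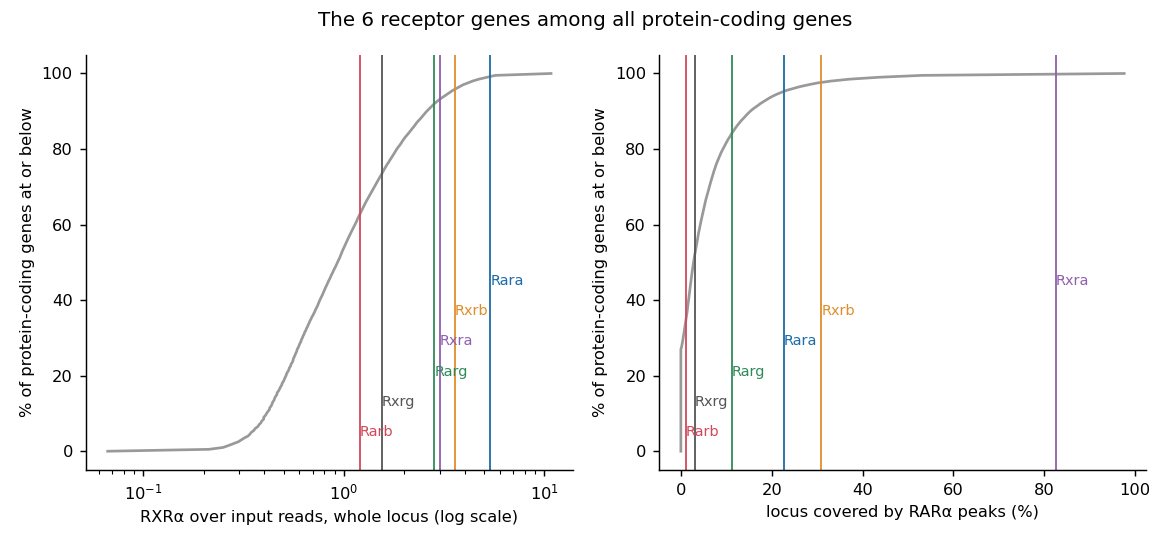
Cumulative share of the 22367 protein-coding genes (grey curve) by RXRα over input reads in the locus (left, log scale) and by the share of the locus covered by RARα peaks (right, %), with the 6 receptor genes as vertical lines. Rara lies highest on the left at 5.37 and Rxra on the right at 82.6%. The grey curve on the left takes input as at least the genome mean, while the lines use the input reads of each locus. On the scale of the curve Rarb and Rxrg would lie lower.

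Other genes of the pathway were also often bound. Of 24 genes of retinoid handling (binding proteins, dehydrogenases, esterification and Cyp26 enzymes), 19 had a filtered RARα peak, 16 an RXRα region and 10 a co-localized peak. Rbp4, Dhrs3 and Cyp26a1 were among these 10. Adh4, Aldh1a1, Aldh1a2, Aldh1a3, Aldh1a7, Bcmo1, Crabp1, Crabp2, Cyp26b1, Cyp26c1, Lrat, Rbp2, Rdh10 and Stra6 lacked a co-localized peak. Of 13 genes for receptors that pair with RXR, the numbers were 11, 10 and 8, and Nr1h2, Nr4a1, Pparg, Thra and Vdr lacked a co-localized peak. Of 13 corepressor and coactivator genes, they were 12, 11 and 7. The shares of all genes beside these counts are again 58.2%, 48% and 27.4%.

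The genes with binding most like that of a receptor gene were found from 4 values within 10 kb of the gene start, namely the highest RARα score, the number of filtered RARα peaks, the highest RXRα ratio and the number of RXRα regions. They were Wdfy2 and Tshz1 for Rara (distances of 0.0916 and 0.0965 in SD units), Disp2 and Htr2a for Rarg, and Hp and E2f8 for Rxra (0.418 and 0.430). For Rxrb they were H2-Ke6 and Slc39a7 at a distance of 0, which share its window. Rarb and Rxrg had no such binding within 10 kb of the gene start and were not compared.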

How the data were processed

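Chromatin of wild type mouse liver was analysed as 1 RXRα, 1 input and 1 RARα library. The authors deposited RXRα and input as signal, namely whole-number coverage per 32 bp bin, and 1 read covers 5 bins. For RARα they deposited a peak list with a score (5 to 382) and a false discovery rate in percent (at most 4.75), for 143280 peaks. What the score measures is not given in the sources used here. The submitters' processing notes name CASAVA 1.4, Bowtie and MACS. The methods of the study name mm10 for the alignment, whereas the labels and headers name mm9, and 0 peaks lay beyond the end of an mm9 chromosome, so mm9 was used.

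Both tracks were scaled to equal means (factor 0.999935), and their totals were already nearly equal as deposited. A bin was called at 20 times the larger of its own input and the mean input of 0.603, and called bins within 200 bp were joined, which gave 42117 RXRα regions in the genome. The scaling places bins at exactly 20 times input, of which the 6 loci hold 7, just below the threshold. RXRα enrichment at a peak is mean signal over mean input, with input at least the genome mean. The 25% overlap, the 10 kb distance, the cut off at 20 times input and the score threshold of 20 were taken from the study's methods. The study used them on called peaks, whereas here the cut off at 20 times input was applied to single 32 bp bins. The 42117 regions are therefore not the RXRα peaks of the study. The study defines the overlap by peak widths, and the narrower interval was the choice made here. Direct repeats were searched within 100 bp of summits. Transcript starts within 1 kb of each other were joined. The named genes are the 6 members, neighbours with a start in a member's locus, and the 2 most similar genes by 4 values. Other genes are named as members of the marker and pathway lists or as the nearest gene start to a peak, and these were picked after their values were seen. The members, lists and settings were chosen with earlier results of these data known. Detection, overlap and repeat search were tested on simulated data. Computations used pysam 0.24.0, matplotlib 3.10.9, scipy 1.17.1, pandas 2.3.3 and numpy 2.4.6 under Python 3.11.15. Some sequence and gene results are not reported here.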

Additional observations from a re-analysis of the deposited data

How the results depend on the processing

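An RXRα region and a co-localized peak were present at 6 of 6 genes at RXRα thresholds of 5, 10 and 30 times input, under both other input references, without scaling and without joining, and a co-localized peak also at overlaps of 1 bp and 50%. With scores greater than 50, 5 genes had a RARα peak and 4 a co-localized one, and by the nearest gene start only 5, 6 and 5 genes had a RARα peak, an RXRα region and a co-localized peak.

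Counts depended more on the settings. Without a score threshold there were 324 RARα peaks, 45 of them co-localized, and 2 genes had a direct repeat at a summit, and with scores greater than 50 there were 9 peaks, 6 co-localized. At RXRα thresholds of 5, 10 and 30 there were 193, 102 and 29 regions, with 44 co-localized RARα peaks at 5 and 13 at 30. Within 10 kb of the gene start only, 3 genes had a co-localized peak, and there were 21 filtered RARα peaks, 18 RXRα regions, 10 co-localized peaks and 0 genes with a repeat at a summit. Within 1 kb of the gene start, 2 genes had each kind of binding, with 5 RARα peaks, 3 regions, 3 co-localized peaks and 0 genes with a repeat. Within 1 kb of any transcript start, 6 genes had each kind of binding, with 13 RARα peaks, 12 regions and 8 co-localized peaks. By the nearest gene start only, 0 genes had a repeat at a summit. With the locus as in the report, 4 genes had one when 1 mismatch was allowed and 3 when the whole peak was searched. These differences follow from the settings themselves. No paired analysis was possible because each group had 1 library.

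The highest ratios, and their order, moved with the input reference. With the genome mean as the only input, the highest ratio was 197 at Rarb, 178 at Rara, 146 at Rxrb, 133 at Rarg and Rxrg and 119 at Rxra, and with the mean input over 1 kb it was 73.0 at Rara, 65.9 at Rarb, 65.3 at Rxrg, 63.6 at Rarg, 41.8 at Rxrb and 39.9 at Rxra. Of the 52 filtered RARα peaks, 17 had 3 or fewer input reads, which limits every ratio at single peaks.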
